A study of Homo sapiens with 11 samples.

Results

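The 6 genes described here are the aryl hydrocarbon receptor gene AHR, the gene of its DNA-binding partner ARNT, and 4 of its best known direct target genes, CYP1A1, CYP1B1, TIPARP and AHRR. They were taken by name from the deposited table and are 6 of 38021 genes, and each of the 6 passed the filter on low counts that left 17793 genes for testing. The set was put together after CYP1A1, CYP1B1 and TIPARP had been seen to be lower under AA147 and AA132, so the values of the target genes in those comparisons are given as a description, without a p-value. The cells were HEK293T, an established human embryonic kidney line, listed as wild type and treated on plates for 6 h. There were 11 conditions with 3 libraries each. They were vehicle (0.1% DMSO), Tg (500 nM thapsigargin, a blocker of the calcium pump of the endoplasmic reticulum), the compound AA147 at 10 µM, and the compound AA132 at 0.1, 0.3, 1, 3, 6, 10, 15 and 30 µM. HEK293T is 1 line, and the labels do not say whether the 3 libraries of a condition came from separate cultures, so p-values measure only the spread between these libraries, which may be technical.

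AHR is a ligand-activated transcription factor of the bHLH-PAS family. Without a ligand it is held in the cytosol by a chaperone complex with HSP90 and the co-chaperone p23 (encoded by PTGES3), and with a ligand it enters the nucleus, pairs with ARNT and binds DNA at the core letters GCGTG. CYP1A1 and CYP1B1 encode cytochrome P450 enzymes that oxidize aromatic compounds and are the classic readouts of the receptor, TIPARP encodes an ADP-ribosyltransferase that limits AHR activity, and AHRR encodes a repressor that competes with AHR for ARNT, so the last 2 act as feedback.

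The letters that AHR and ARNT bind can be seen upstream of 3 of the target genes, and the stretches below are shown because the 4 target genes moved together in the data. A RefSeq promoter entry on GRCh38.p14 was matched for 5 of the 6 genes, all but CYP1B1. Each sequence runs 5′ to 3′ on the strand of its gene, and capitals mark the matches searched for on both strands, the core GCGTG or, at CYP1A1, the longer TNGCGTG, which contains the core. A match on the other strand appears as its reverse complement. The CYP1A1 stretch lies at chr15:74726355-74726654 on the minus strand, at positions -1126 to -827 relative to the start site, and overlaps no exon of GENCODE v44. Its capitals are 3 of the 5 TNGCGTG matches found in the 1500 bases upstream of the gene. It was picked as the 300 bases with the most TNGCGTG matches. The RefSeq promoter entry of CYP1A1, at its start site, held 1 core match and 0 matches to TNGCGTG. The TIPARP stretch is the 250 bases before the start at chr3:156674340-156674589 on the plus strand, with 2 core matches, and its first part overlaps an exon of the antisense gene TIPARP-AS1 in GENCODE v44. The AHRR stretch is the 250 bases before the start at chr5:321464-321713 on the plus strand, and its 1 core match is also a match to TNGCGTG. Further RefSeq entries of TIPARP and AHRR are not printed. Those of TIPARP from 156674676 and from 156676414 held 0 core matches. That of AHRR from 322360 held 2 core matches and 0 matches to TNGCGTG.
CYP1A1: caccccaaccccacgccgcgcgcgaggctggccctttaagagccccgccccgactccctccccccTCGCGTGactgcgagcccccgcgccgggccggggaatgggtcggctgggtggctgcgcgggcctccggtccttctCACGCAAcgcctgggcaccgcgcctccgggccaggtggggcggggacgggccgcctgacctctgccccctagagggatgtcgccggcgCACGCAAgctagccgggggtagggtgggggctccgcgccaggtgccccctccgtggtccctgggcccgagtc
TIPARP: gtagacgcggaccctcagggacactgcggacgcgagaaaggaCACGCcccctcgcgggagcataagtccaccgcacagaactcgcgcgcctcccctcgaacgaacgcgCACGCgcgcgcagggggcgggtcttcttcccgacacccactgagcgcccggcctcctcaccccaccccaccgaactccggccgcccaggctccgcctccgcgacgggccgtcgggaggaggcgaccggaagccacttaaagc
AHRR: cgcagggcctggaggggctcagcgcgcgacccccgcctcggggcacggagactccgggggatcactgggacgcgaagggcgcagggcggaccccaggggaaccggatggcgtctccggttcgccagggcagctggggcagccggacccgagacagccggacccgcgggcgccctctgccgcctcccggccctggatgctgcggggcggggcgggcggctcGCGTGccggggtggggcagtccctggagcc
Of 35116 RefSeq promoter windows of 300 bases, 36.54% hold the core and 5.51% hold TNGCGTG, so a single core match is common. At least 1 TNGCGTG was found in the 1500 bases upstream of 26.48% of 20046 protein-coding genes and at least 5, as at CYP1A1, in 0.02%. TNGCGTG was not particular to the targets: in the 1500 bases upstream ARNT held 2 matches, AHRR 1, and TIPARP and AHR 0, and the core was found 10 times at CYP1A1, 6 at TIPARP, 5 at ARNT, 4 at AHRR and 0 times at AHR. The matches were listed only for the 5 genes with a RefSeq promoter entry, so the target CYP1B1 is missing from these values. No share over all genes is given for the core counts. These matches are letters in a window and not measured binding.

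On GENCODE v44 (GRCh38), CYP1A1 lies on chromosome 15 from 74719542 to 74725536, CYP1B1 on chromosome 2 from 38066973 to 38109902, TIPARP on chromosome 3 from 156673235 to 156706770, AHRR on chromosome 5 from 321714 to 438291, AHR on chromosome 7 from 16916359 to 17346152 and ARNT on chromosome 1 from 150809713 to 150876708. CYP1A1, CYP1B1 and ARNT are on the minus strand and the others on the plus strand. Counts are per gene, and use of strand in counting is not given in the sources used here. TIPARP overlaps TIPARP-AS1 (71 to 245 counts per library) and CYP1B1 overlaps RMDN2 (85 to 235 counts) on the opposite strand. If counting did not use strand, reads of these neighbours cannot be told apart from those of the 2 targets where they overlap. AHRR also has read-through transcripts from PDCD6 in the annotation, so the assignment of its reads is uncertain.

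Library totals ran from 32.27 to 37.96 M counts, with 36.36 M the second lowest. Levels are given in CPM (counts per M counts of the library) after scaling between libraries by the trimmed mean of M values (TMM). Of 6 genes used as markers of this line, VIM, KRT8, KRT18, NEFL and NEFM were expressed in all libraries and PAX2, of the kidney lineage, at 0.41 to 1.53 CPM, while 4 liver and 2 blood markers had at most 6 counts in any library. Some libraries that stood apart bear on the results below. The library labelled AA132 1 µM library 1 had 39.8 CPM of HMOX1, the stress-induced heme oxygenase gene (picked after its values were seen), against 11.5 and 12.1 in the other 1 µM libraries. The library labelled AA132 3 µM library 3 had 14.2 CPM of HMOX1 against 49.3 and 43.9 in its group, so each of these libraries was like the other dose. Vehicle library 1 also stood apart, with 5.86% of genes deviating by more than 1 log2 unit from the mean of the other 2 vehicle libraries, against 3.00% to 5.50% in the other 32 libraries. The 5.50% was that of AA132 10 µM library 1, which had 70.7 CPM of HMOX1 against 125.7 and 118.1 in its group. In the same group, library 3 had the lowest total, 32.27 M.

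AHR mRNA differed from vehicle under no treatment by the test used. AHR, the sensor itself, was at 18.9, 46.7 and 48.5 CPM in the 3 vehicle libraries, the low value being that of vehicle library 1. Under Tg it was at 47.5, 46.2 and 47.6 CPM and under AA147 at 43.3, 43.8 and 46.8 CPM. Over the 24 AA132 libraries it ran from 32.2 CPM, in 30 µM library 3, through means of 43.3 to 46.0 CPM at 0.1 to 10 µM, to 51.1 ± 1.79 CPM (SD, n = 3) at 15 µM. The 15 µM libraries were above all vehicle libraries, and at the other 7 doses and under Tg and AA147 the libraries overlapped those of vehicle. The share of all genes above vehicle without overlap at 15 µM is not given here. No difference of AHR from vehicle was called by edgeR's quasi-likelihood test with Benjamini-Hochberg adjustment over all genes. The smallest adjusted p was 0.184, under Tg (log2 difference 0.31, SE 0.17), and at 15 µM it was 0.196 (0.42, 95% interval 0.074 to 0.77). Vehicle library 1 decided the direction. Without it the AHR difference fell to -0.02 under Tg and was below 0 for 9 of the 10 treatments, 15 µM AA132 being the exception. Without vehicle library 3 the Tg difference was 0.52 and passed the test (edgeR adjusted p = 0.0301), and without a filter on low counts AHR was called under Tg (0.00816) and at 15 µM (0.000337). The slope of AHR on AA132 dose, which leaves the vehicle libraries out, was 0.02 log2 units per 10-fold dose (95% interval -0.05 to 0.08, edgeR adjusted p = 0.764).

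ARNT, the partner that AHR shares with the hypoxia-inducible factors, varied least of the 6 genes. Its condition means ran from 44.8 ± 1.18 CPM at 10 µM AA132 to 50.3 ± 1.63 CPM at 0.1 µM (SD, n = 3), a range of 1.12-fold, and vehicle was at 45.3 ± 5.54 CPM. The vehicle libraries alone ran from 40.1 to 51.1 CPM, which is wider than the range of those means. Against vehicle, no ARNT difference was called, with the smallest edgeR adjusted p at 0.241, under Tg (log2 difference 0.12, SE 0.08). It passed only in the fit without vehicle library 3, at 0.22 (adjusted p = 0.0389). The slope on AA132 dose was -0.04 (95% interval -0.08 to 0.0034, adjusted p = 0.202).

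**Figure D1:**
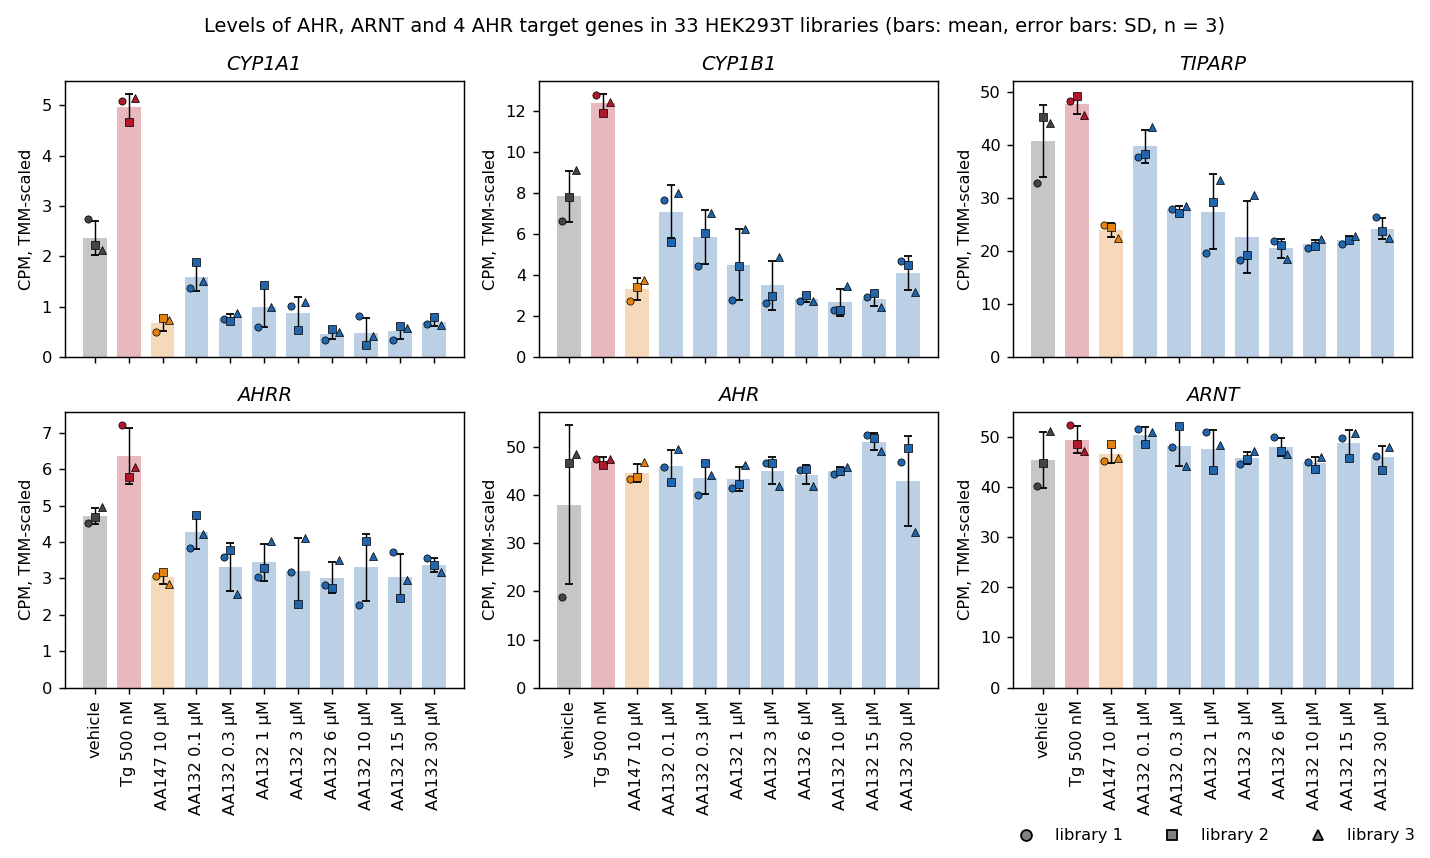
CPM of the 6 genes (y axis, TMM-scaled CPM, linear from 0) in each of the 11 conditions (x axis). Bars are means, error bars the SD over 3 libraries, and the markers libraries 1, 2 and 3. CYP1A1, CYP1B1, TIPARP and AHRR are highest under Tg and lower under AA147 and most AA132 doses, while AHR and ARNT lie between 39.9 and 52.4 CPM apart from AHR in vehicle library 1 at 18.9 CPM and in AA132 30 µM library 3 at 32.2 CPM.

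Per kilobase of transcript, the vehicle levels of the 6 genes spanned 1 order of magnitude. TIPARP was at 10.6 ± 1.77 CPM per kilobase and ARNT at 9.63 ± 1.18, followed by AHR at 6.09 ± 2.66 (SD, n = 3). The enzyme genes were lower, CYP1B1 at 1.503 ± 0.24 and CYP1A1 at 0.91 ± 0.13, and the repressor gene AHRR was at 0.83 ± 0.04. TIPARP and ARNT overlapped within their spread, as did CYP1A1 and AHRR. CYP1A1, the lowest by counts, had 9 to 189 counts per library, so its values carry the largest counting error of the set.

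CYP1A1 had the widest range over the conditions, 10.6-fold between the highest and the lowest condition mean, against 4.62-fold for CYP1B1, 2.32-fold for TIPARP, 2.11-fold for AHRR, 1.34-fold for AHR and 1.12-fold for ARNT. In vehicle the 3 libraries had 2.74, 2.23 and 2.12 CPM of CYP1A1. With AA132 they had 1.36, 1.88 and 1.52 CPM at 0.1 µM and 0.75, 0.72 and 0.88 CPM at 0.3 µM. All 6 of these AA132 libraries lay below all vehicle libraries, and the 3 at 0.3 µM lay below the 3 at 0.1 µM. Of all genes, 4.18% were lower at 0.3 µM than in vehicle without overlap, and 5.14% lower than at 0.1 µM. That share is not given for 0.1 µM against vehicle, where the CYP1A1 log2 difference was -0.57 (95% interval -1.13 to -0.02). At 0.1 and 0.3 µM edgeR called 0% of all genes against vehicle. Libraries at 1 µM had 0.60, 1.43 and 0.99 CPM and those at 3 µM had 1.02, 0.53 and 1.09 CPM, with the lowest 1 µM value in the library that was like 3 µM by HMOX1. The lowest means were at 6, 10 and 15 µM, with 0.47 ± 0.12, 0.49 ± 0.29 and 0.51 ± 0.15 CPM (SD, n = 3), or 19.9% to 21.7% of vehicle. At 10 µM, library 1 had 0.81 CPM against 0.24 and 0.42 in the others, and without it the log2 difference from vehicle went from -2.25 to -2.86. At 30 µM the 3 libraries, at 0.67, 0.79 and 0.64 CPM, all lay above the 3 at 15 µM (0.35, 0.62 and 0.58 CPM), but the fitted step of 0.44 had a 95% interval of -0.26 to 1.14.

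CYP1B1 came down over a wider span of doses. It had 6.62, 7.79 and 9.12 CPM in the vehicle libraries, 7.68, 5.61 and 7.99 CPM at 0.1 µM AA132 and 4.46, 6.07 and 7.04 CPM at 0.3 µM, where the groups still overlapped. At 1 µM it had 2.81, 4.44 and 6.26 CPM, and at 3 µM 2.64, 2.97 and 4.89 CPM. The lowest 1 µM and the highest 3 µM value were those of the 2 libraries that were like the other dose by HMOX1. From 1 µM on no library reached the lowest vehicle library, and from 3 µM on none reached the lowest 0.1 µM library. The shares of all genes with such values are not given here. The lowest mean was 2.68 ± 0.66 CPM at 10 µM (SD, n = 3), 34.2% of vehicle. At 30 µM the libraries were at 4.69, 4.49 and 3.16 CPM, above those of 15 µM (2.94, 3.11 and 2.45 CPM) without overlap, a step of 0.54 (95% interval 0.05 to 1.02). CYP1A1 and CYP1B1 were the 2 of the 6 genes above 15 µM without overlap at 30 µM, beside 6.91% of all genes.

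TIPARP, the most abundant of the targets, had a lower mean at 0.3 than at 0.1 µM AA132 and still lower means from 3 µM on. The vehicle libraries had 32.9, 45.3 and 44.2 CPM, the lowest being vehicle library 1, and the 0.1 µM libraries 37.8, 38.3 and 43.5 CPM. At 0.3 µM the 3 libraries lay close together at 28.0, 27.3 and 28.5 CPM, below all libraries of vehicle and of 0.1 µM. The step from 0.1 to 0.3 µM was -0.51 log2 units (95% interval -0.80 to -0.22), and for CYP1A1 it was -1.02 (-1.62 to -0.41). At 1 µM TIPARP was at 19.6, 29.4 and 33.4 CPM, the last 2 above all 0.3 µM libraries. At 3 µM it was at 18.4, 19.2 and 30.6 CPM. The first 1 µM and the last 3 µM value were again from the libraries that were like the other dose. It was lowest at 6 µM, at 20.6 ± 1.77 CPM (SD, n = 3) or 50.4% of vehicle, and at 24.3 ± 2.06 CPM at 30 µM. Its log2 difference from vehicle was -0.55 for the 0.3 µM group (95% interval -0.84 to -0.25) and -0.99 for the 6 µM group (-1.28 to -0.69). With the 2 libraries like the other dose left out, TIPARP differed from vehicle by -0.38 for 1 µM and -1.12 for 3 µM.

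AHRR, the feedback repressor, moved over the smallest range of the 4 targets. It had 4.52, 4.70 and 4.96 CPM in vehicle, 3.83, 4.74 and 4.23 CPM at 0.1 µM AA132 and 3.60, 3.79 and 2.58 CPM at 0.3 µM. The 0.3 µM libraries lay below those of both other groups, and at the 6 higher doses the means stayed between 3.02 and 3.45 CPM. The 3 libraries of a dose spread widely, from 2.27 to 4.02 CPM at 10 µM, and the range of 2.27 to 4.12 CPM over the 18 libraries from 1 to 30 µM lay wholly below vehicle. The share of all genes with such values is not given here, and edgeR called AHRR against vehicle at none of these doses in the main fit.

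The values at 0.3 µM can be set side by side with HMOX1, though edgeR called none of these genes at that dose. At 0.3 µM the log2 difference from vehicle was -1.59 for CYP1A1 (95% interval -2.18 to -0.99), -0.55 for TIPARP (-0.84 to -0.25), -0.51 for AHRR (-0.89 to -0.12) and -0.42 for CYP1B1 (-0.86 to 0.02). The HMOX1 libraries at 0.3 µM had 11.2, 12.4 and 10.99 CPM against 16.4, 11.1 and 11.9 CPM in vehicle, a difference of -0.18 (-0.89 to 0.52). HMOX1 rose at higher doses, and at 30 µM it was at 200.7 ± 10.0 CPM (SD, n = 3). The target means stayed below vehicle at the higher doses, but at 1 µM the TIPARP libraries overlapped vehicle. Without 1 µM library 1 and 3 µM library 3, the 1 µM differences were -0.97 for CYP1A1, -0.38 for TIPARP, -0.37 for AHRR and -0.55 for CYP1B1. Those of CYP1A1, TIPARP and AHRR were smaller than at 0.3 µM, and that of CYP1B1 was larger. Every one of these comparisons with vehicle shares the same 3 vehicle libraries. Against the 0.1 µM libraries, which leaves vehicle out, the libraries of 3 of the 6 genes at 0.3 µM did not overlap (CYP1A1, TIPARP and AHRR, all lower), where 5.14% of all genes tested were lower without overlap. HMOX1 at 0.3 µM was also below 0.1 µM without overlap, by -0.19 (-0.89 to 0.51). Against vehicle CYP1A1, TIPARP and AHRR did not overlap at 0.3 µM either, beside 4.18% of all genes lower without overlap.

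**Figure D2:**
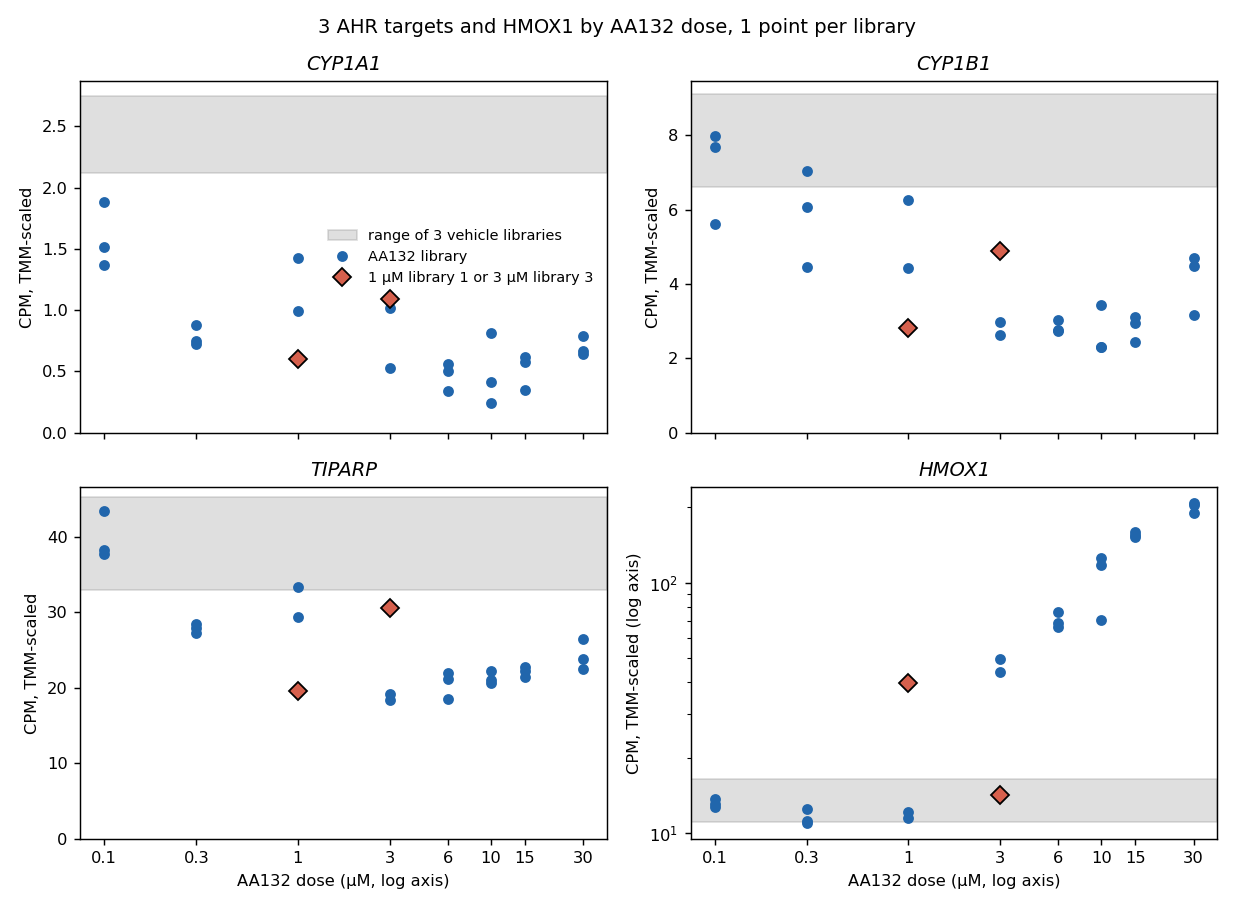
CPM of CYP1A1, CYP1B1, TIPARP and HMOX1 (y axes, TMM-scaled CPM, log axis for HMOX1) against AA132 dose in µM (x axis, log), 1 point per library. The grey band is the range of the 3 vehicle libraries, and diamonds mark 1 µM library 1 and 3 µM library 3. CYP1A1 and TIPARP are below the band at 0.3 µM, where HMOX1 is at 10.99 to 12.4 CPM, within or just under its own band.

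Counts of calls are given as a description for these comparisons, since the set was chosen from them. At an edgeR adjusted p under 0.05, 0 of the 6 genes were called against vehicle at 0.1, 0.3 and 1 µM AA132, where 0% of all genes were called. An unadjusted p under 0.05 was found for 796, 981 and 1057 genes. DESeq2 called 0, 1 and 0 of the 6 at these doses. At 3, 6, 10, 15 and 30 µM CYP1A1, CYP1B1 and TIPARP were called lower, 3 of the 6, beside 0.118%, 1.07%, 1.41%, 2.76% and 7.05% of all genes called and 0.0169%, 0.202%, 0.371%, 0.792% and 3.19% called lower. The 3 genes were all those called lower at 3 µM out of 17793. At 3 µM the count went to 0 when 3 µM library 1 or 2 or vehicle library 2 or 3 was left out, and it was 3 without both libraries that were like the other dose. At 30 µM the CYP1B1 call was lost without 30 µM library 3, and with only the 2 conditions in the fit 0 of the 6 were called at 3 µM and 1 each at 10 and 30 µM. Without the 2 libraries that were like the other dose, the log2 differences at 1 µM were -0.97 for CYP1A1, -0.55 for CYP1B1 and -0.38 for TIPARP, in place of -1.23, -0.80 and -0.57. At 3 µM they were -1.60, -1.48 and -1.12, in place of -1.42, -1.17 and -0.85. In the slope on log10 dose over the 24 AA132 libraries, the same 3 genes of the 6 were called with a downward slope, beside 18.7% of all genes called and 8.89% called downward. Their slopes were -0.56 (95% interval -0.80 to -0.32) for CYP1A1, -0.49 (-0.66 to -0.32) for CYP1B1 and -0.31 (-0.41 to -0.20) for TIPARP per 10-fold dose, and that of AHRR was -0.13 (-0.25 to -0.0061). CYP1A1, CYP1B1 and TIPARP had their lowest means at 6 or 10 µM and higher means at 30 µM, so a straight line may not describe the whole course. The step from 15 to 30 µM was 0.54 (95% interval 0.05 to 1.02) for CYP1B1. For CYP1A1 (0.44, -0.26 to 1.14) and TIPARP (0.13, -0.17 to 0.43) the interval included 0.

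**Figure D3:**
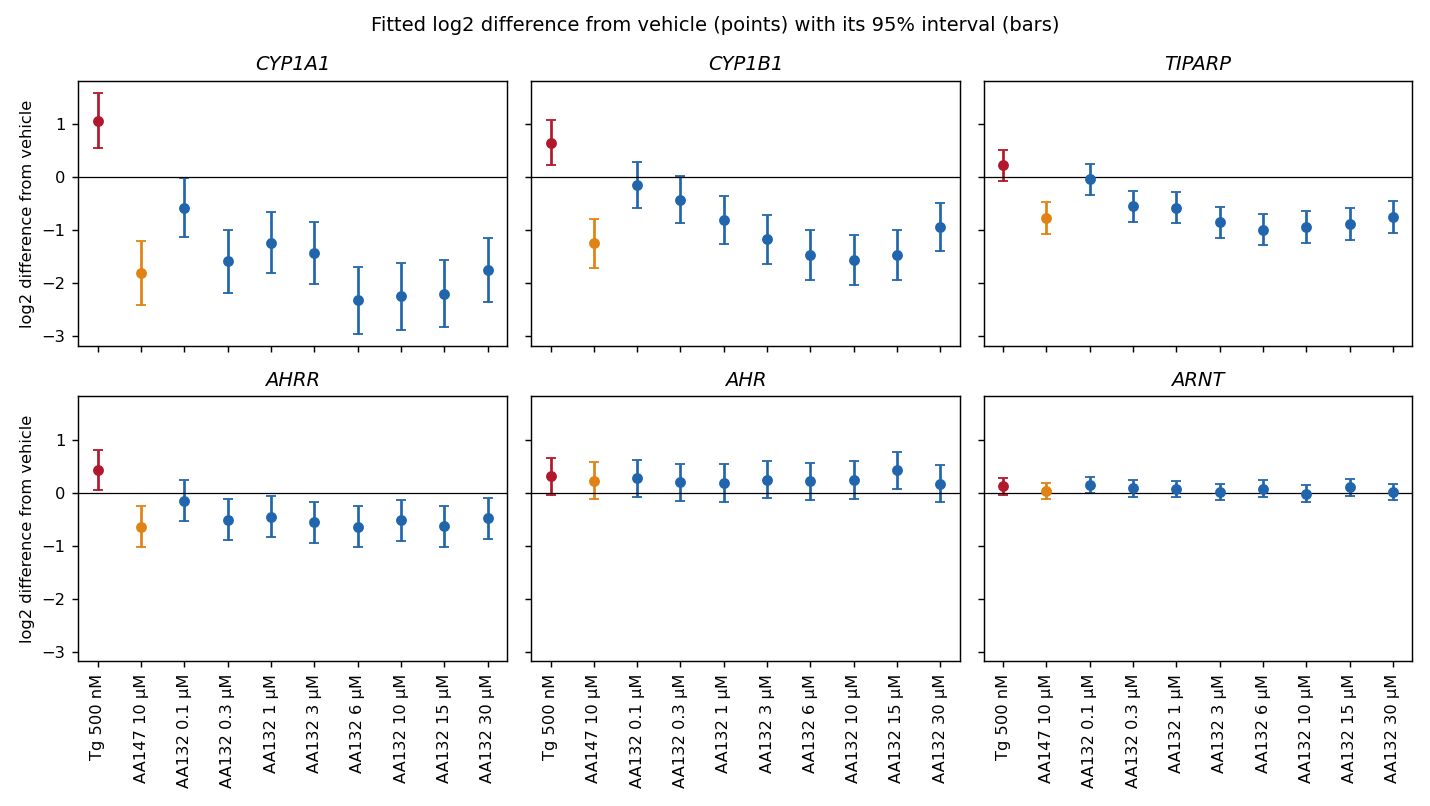
Fitted log2 difference from vehicle (y axis) of each of the 6 genes under each treatment (x axis), with 95% intervals as bars. CYP1A1 reaches -2.32 at 6 µM AA132, CYP1B1 -1.56 at 10 µM and TIPARP -0.99 at 6 µM, whereas the AHR and ARNT intervals include 0 except for AHR at 15 µM.

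AA147 at 10 µM had the same 4 targets below vehicle, with no library overlapping, as did 3.47% of all genes. CYP1A1 was at 0.50, 0.78 and 0.73 CPM, CYP1B1 at 2.73, 3.42 and 3.78 CPM, TIPARP at 24.9, 24.6 and 22.5 CPM and AHRR at 3.07, 3.17 and 2.84 CPM. The log2 differences from vehicle were -1.81 (95% interval -2.42 to -1.21), -1.25 (-1.71 to -0.78), -0.77 (-1.06 to -0.47) and -0.64 (-1.03 to -0.25), in that order. CYP1A1, CYP1B1 and TIPARP were called, beside 0.0225% of all genes called and 0.0169% called lower. They were all the genes called lower under AA147, and the count was 0 without any 1 AA147 library and 1 without vehicle library 2 or 3. The set was put together after these same genes had been seen to be lower under AA147 and AA132. These counts and shares are therefore a description of that choice and not a test.

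The 2 compounds could be compared at 1 matched dose and time, 10 µM for 6 h, in 1 pair. None of the 6 genes was called between AA132 and AA147 by edgeR or by DESeq2, 0 had an unadjusted p under 0.05, and 0.0674% of all genes were called (12 genes, with 1425 at an unadjusted p under 0.05). The target genes were chosen for being low under both compounds, so for them these counts and the differences that follow are a description, without a p-value. The AA132 minus AA147 difference was -0.44 log2 units for CYP1A1 (95% interval -1.15 to 0.27), -0.31 for CYP1B1 (-0.81 to 0.18) and -0.17 for TIPARP (-0.47 to 0.13). The intervals therefore leave room for CYP1A1 to be lower under AA132 by more than 1 log2 unit or somewhat higher. Without AA132 library 1 the CYP1A1 difference was -1.05. The 3 AA132 libraries of TIPARP, at 20.7, 21.0 and 22.2 CPM, lay below the 3 AA147 libraries, which 11.3% of all genes tested also did in either direction. AHRR differed by 0.12 (-0.28 to 0.52). AHR differed by 0.01 (-0.34 to 0.36, edgeR adjusted p = 0.995) and ARNT by -0.05 (-0.21 to 0.10, edgeR adjusted p = 0.924).

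Tg was the only treatment of the 10 under which the mean of any of the 4 targets was above vehicle. This comparison shares the vehicle libraries with those the choice of the genes used. CYP1A1 had 5.08, 4.67 and 5.15 CPM under Tg, a mean of 4.96 ± 0.26 against 2.36 ± 0.33 CPM in vehicle (SD, n = 3), and rose 2.10-fold (log2 difference 1.07, SE 0.26, edgeR adjusted p = 0.00147). CYP1B1 had 12.8, 11.9 and 12.4 CPM, a mean of 12.4 ± 0.43 against 7.84 ± 1.25 CPM, and rose 1.58-fold (0.66, SE 0.21, edgeR adjusted p = 0.0161). All Tg libraries lay above all vehicle libraries for both genes. The CYP1A1 call held without any 1 of the 6 libraries (edgeR adjusted p up to 0.0102), while that of CYP1B1 was lost without Tg library 1 (0.62, adjusted p = 0.0503) or vehicle library 1 (0.54, adjusted p = 0.0696).

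The feedback genes did not pass the test under Tg. AHRR had 7.22, 5.79 and 6.07 CPM under Tg, above all vehicle libraries, with a log2 difference of 0.43 (SE 0.18, edgeR adjusted p = 0.0730). TIPARP had 48.3, 49.3 and 45.7 CPM, also above all vehicle libraries, the highest of which was at 45.3 CPM, and its difference was 0.23 (SE 0.14, edgeR adjusted p = 0.239). Of the 6 genes 2 were called under Tg, both higher, where 31.2% of all genes tested were called and 16.2% were called higher, so the share in the set is near that of all genes. Libraries of 4 of the 6 lay above vehicle without overlap, as did 20.2% of all genes. Set against the compounds in place of vehicle, the Tg difference was 2.88 for CYP1A1, 1.90 for CYP1B1, 0.99 for TIPARP and 1.07 for AHRR over AA147, and 3.32, 2.22, 1.16 and 0.95 over AA132 at 10 µM. These are given without a p-value, since the AA147 and AA132 libraries entered the choice of the genes.

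**Figure D4:**
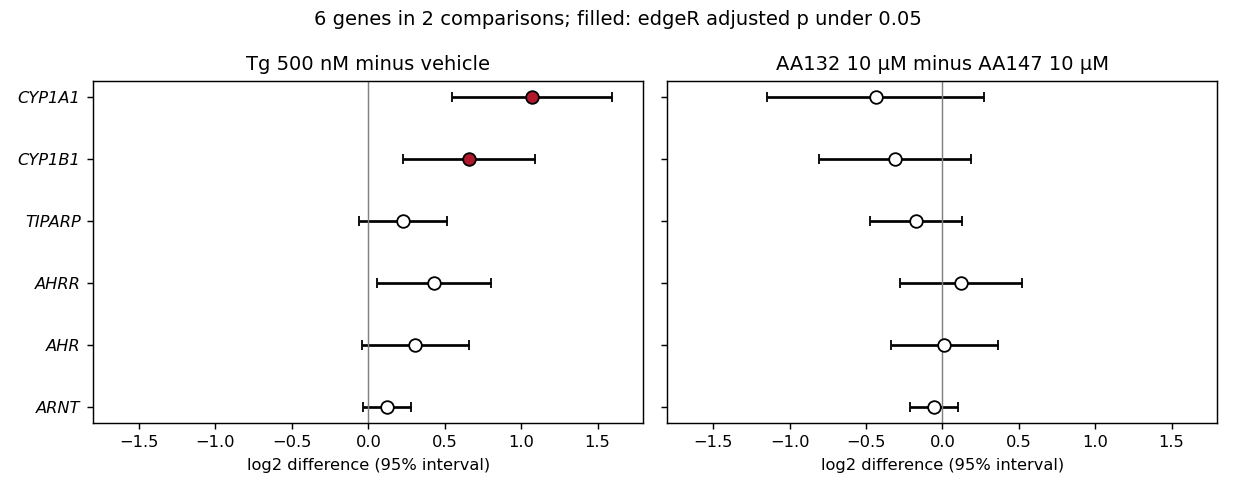
Log2 differences (x axis) of the 6 genes (y axis) with 95% intervals, for Tg minus vehicle on the left and AA132 minus AA147 at 10 µM on the right. Filled points had an edgeR adjusted p under 0.05, which holds for CYP1A1 and CYP1B1 under Tg and for no gene between the compounds.

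The profiles of the targets over the 11 conditions were alike. Over the 11 condition means of log2 CPM, among 5321 genes with a mean of at least 1 CPM in some condition and a range of at least 0.5 log2 units, the 5 genes most like CYP1A1 by Pearson correlation included AHRR (r = 0.967), TIPARP-AS1 (0.964), CYP1B1 (0.953) and TIPARP (0.953). The 5 most like CYP1B1 included TIPARP-AS1 (0.981), TIPARP (0.971), CYP1A1 (0.953) and VIPR1 (0.942), and those most like TIPARP were CYP1B1 (0.971), TIPARP-AS1 (0.965), CYP1A1 (0.953), AHRR (0.944) and LOC101927086 (0.942). CYP1A1, CYP1B1 and TIPARP were put together for being low under AA147 and AA132, which make up 9 of the 11 conditions, so their likeness to each other is in part that choice. All points share the same libraries and the 8 AA132 doses, and the high Tg values weigh in each of these correlations. With AHR the 4 targets correlated at -0.22 to -0.28 and with ARNT at 0.32 to 0.42. The vehicle mean of AHR, the lowest of the 11, rests on vehicle library 1 (18.9 CPM against 46.7 and 48.5). The correlations were not computed without that library.

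TIPARP-AS1, an antisense noncoding gene (chromosome 3, 156671859 to 156674446, minus strand), begins 144 bases before the TIPARP start, inside the printed stretch. It had 3.69, 4.34 and 4.27 CPM in vehicle and 6.65, 5.81 and 5.94 CPM under Tg, and at 6 µM AA132 2.65, 2.66 and 2.31 CPM. The Tg libraries were all above and the 6 µM libraries all below vehicle. Under AA147 it was at 2.87 ± 0.36 CPM (SD, n = 3) and its slope on AA132 dose was -0.27 (95% interval -0.41 to -0.12). It was picked for its likeness to the targets, so these values carry no test. Reads from where TIPARP-AS1 and TIPARP overlap cannot be told apart if counting did not use strand, and their part in the likeness was not tested. VIPR1, a receptor gene for vasoactive intestinal peptide, was at 6.34 CPM in vehicle, 6.43 under Tg and 3.30 at 10 µM AA132.

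Other genes of the pathway were taken from 6 lists with 70 genes, of which 58 were tested. Over the 6 lists 26 genes were called under Tg, 13 higher and 13 lower, or 44.8% of those tested against 31.2% of all genes. At 30 µM AA132 13 were called, 7 higher and 6 lower, or 22.4% against 7.05% of all genes, and under AA147 1 was. Between AA132 and AA147 at 10 µM 0 were called by edgeR and by DESeq2, and 10 had an unadjusted p under 0.05 (edgeR). For 30 µM AA132 against vehicle, 1 list gene was called in a fit of those 2 conditions alone. In the fit of all conditions without 30 µM library 2 there were 8.

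Genes of the complex that holds AHR in the cytosol were lower under Tg. Of its 5 listed genes 3 fell and none rose, with a median log2 difference of -0.39 against 0.0048 over all genes, of which 15% were called lower. HSP90AA1, the inducible HSP90 gene, went from 2747 ± 84.9 to 1677 ± 56.4 CPM (SD, n = 3, log2 difference -0.71, edgeR adjusted p = 7.26e-09). HSP90AB1, the constitutive HSP90 gene, fell by 0.57 (edgeR adjusted p = 3.89e-08) and PTGES3 by 0.39 (1.47e-05). HSP90AA1 rose at 30 µM AA132, by 0.30 (edgeR adjusted p = 0.0160), the only call of the 5 genes there. Of the 9 listed coregulators, MED1 (0.43) and CREBBP (0.32) rose and SMARCA4 (-0.40) and CARM1 (-0.21) fell under Tg, and at 30 µM AA132 SMARCA4, the ATPase of a chromatin remodelling complex, fell by 0.34 (edgeR adjusted p = 0.00684).

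Among 12 tested bHLH-PAS genes other than AHR and ARNT, 3 were called under Tg, where 31.2% of all genes were. BMAL1, a circadian clock activator, rose from 19.1 ± 0.34 to 30.8 ± 1.95 CPM (SD, n = 3, log2 difference 0.69, edgeR adjusted p = 2.59e-09). ARNT2, the ARNT paralog, rose from 11.7 ± 2.33 to 18.5 ± 1.49 CPM (0.65, edgeR adjusted p = 7.13e-05). EPAS1, which encodes HIF-2α, fell by 0.43 (edgeR adjusted p = 0.00184), and SIM2 fell by 0.29 at 30 µM AA132 (0.0413). Of 14 listed targets that ARNT serves with the hypoxia-inducible factors, 13 were tested, and under Tg 3 rose and 4 fell. VEGFA, the vascular growth factor, rose by 1.55 (edgeR adjusted p = 3.64e-15), NDRG1 by 0.62 and SLC2A1, the main glucose transporter, by 0.50, while ADM, the vasodilator peptide gene, fell by 0.70 (5.66e-06). At 30 µM AA132 the same VEGFA (0.45), NDRG1 (0.48) and SLC2A1 (0.33) rose, and PDK1 (-0.30) fell.

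The wider group of reported AHR targets held genes called in both directions. Of 18 listed genes 13 were tested, and under Tg 6 rose and 2 fell, with a median log2 difference of 0.02. SLC7A5, an amino acid transporter gene, rose from 60.3 ± 1.27 to 249.7 ± 5.98 CPM (SD, n = 3, log2 difference 2.05, edgeR adjusted p = 1.47e-18). PTGS2, the inducible cyclooxygenase, rose by 1.66 (edgeR adjusted p = 1.96e-08) and AREG, a growth factor gene, by 1.36 (0.000322), while the Notch target HES1 fell by 0.50 (3.64e-05). At 30 µM AA132 3 rose and 3 fell, with a median of -0.12. There SLC7A5 rose by 0.95 (edgeR adjusted p = 1.47e-08), CYP2S1, a further cytochrome P450 gene, by 0.63 (0.00797) and NQO1, a quinone reductase that NRF2 also controls, by 0.61 (0.00617), in the same libraries in which CYP1A1 and CYP1B1 were below vehicle. The 3 that fell were VAV3 (-0.42, edgeR adjusted p = 0.0202), and, named outside the rule to complete the count, HES1 (-0.36) and NEDD9 (-0.26). SLC7A5 was also called under AA147, higher by 0.48 (edgeR adjusted p = 0.0279). CYP2S1 had 6.74 ± 0.62 CPM in vehicle, 6.97 ± 0.35 at 0.3 µM and 10.45 ± 0.56 at 30 µM, and NQO1 5.26 ± 1.16, 4.19 ± 0.68 and 8.02 ± 0.17 CPM (SD, n = 3). CYP1A2, the sister gene of CYP1A1, stayed too low for testing, as did UGT1A1, UGT1A6, EREG and IL1B. Of 11 listed enzymes that make or remove tryptophan-derived ligands 6 were tested, and KYAT1, a kynurenine aminotransferase gene, fell under Tg by 0.47 (edgeR adjusted p = 6.76e-06).

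**Figure D5:**
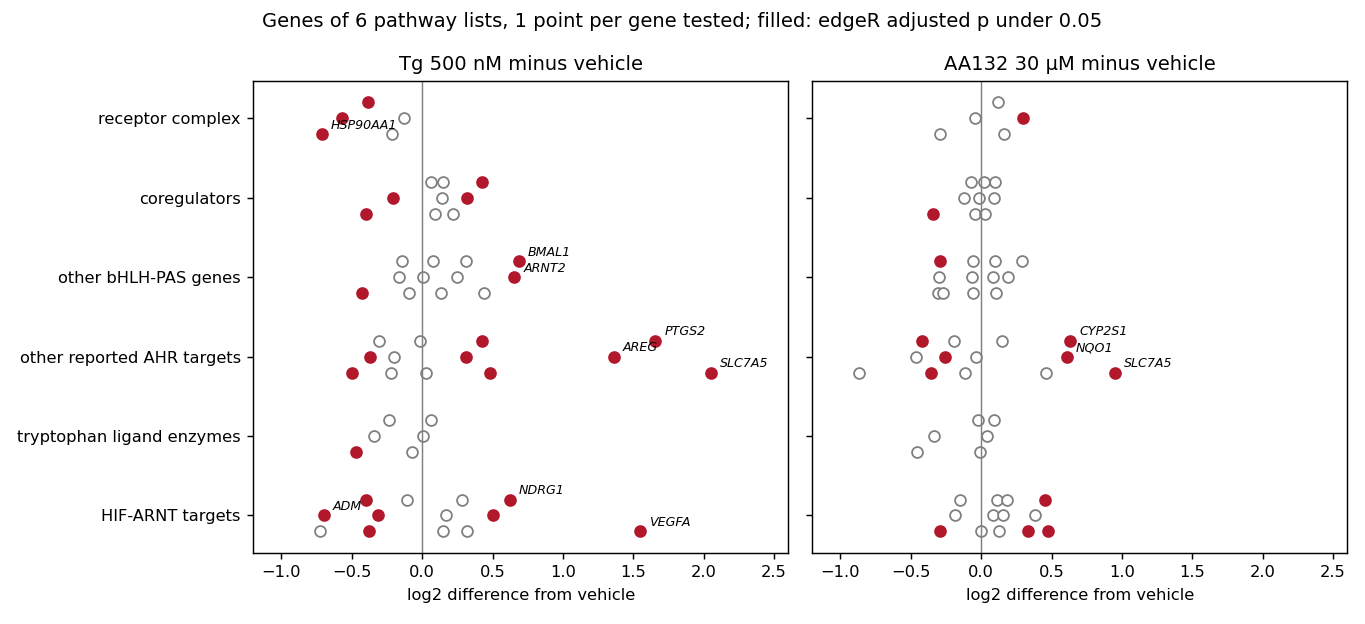
Log2 difference from vehicle (x axis) of the genes of the 6 pathway lists (y axis), 1 point per gene tested, for Tg on the left and AA132 at 30 µM on the right. Filled points had an edgeR adjusted p under 0.05, which holds for 26 of 58 genes under Tg and 13 of 58 at 30 µM, and the largest rise in both panels is that of SLC7A5.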

How the data were processed

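Per the labels, total RNA of 11 conditions was sequenced on DNBSEQ, and per the submitters' processing notes the build was GRCh38.p7. The aligner, counter, annotation and use of strand are not given in the sources used here. The deposited table holds expected counts made by the authors: 3.22% of values are fractional, and 43.5% hold a floor value of 0.009, which was set to 0. Values were rounded to whole numbers, and 38074 entries gave 38021 genes after summing 98 entries that share a name. All per-sample columns were used (0 left out).

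The labels list 1 sample per condition and the table has 3 numbered columns for each, here called libraries 1 to 3. A chi-square per degree of freedom between columns of a condition ran from 4.48 to 59.4 (median 7.56, 33 pairs), so the columns differ by more than counting error, and they were used as replicates.

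Genes passing edgeR's expression filter were tested by edgeR 4.0.16 (R 4.3.3) with TMM scaling, a prior count of 2 and a quasi-likelihood fit over all 33 libraries. P-values were adjusted by Benjamini-Hochberg over 17793 genes with a threshold of 0.05. The slope used log10 dose over the AA132 libraries (17554 genes). The biological coefficient of variation was 9.09%. The fit was tested on simulated data. Alternatives were DESeq2 1.42.0, no filter, a fit of only the conditions compared, a replicate block, and leaving out each library. Intervals are at 95%.

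The genes, pathway lists and tests were chosen with earlier results of these data known. AHRR was planned as a tested gene and is given without a p-value under AA147 and AA132, since it may have entered the choice. CYP1A1, CYP1B1, TIPARP and AHRR were planned as tested between AA132 and AA147 and are given there without a p-value for the same reason. Named genes are the 6, up to 4 called genes per list and comparison by size of difference, and the 5 most alike to CYP1A1, CYP1B1 and TIPARP. HMOX1 was added after its values were seen. Some genes that the rule names are not reported here.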

Additional observations from a re-analysis of the deposited data

How the results depend on the processing

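Of 612 fits of single genes that left out 1 library, 580 kept their direction and, for tested results, their side of the threshold, or, for values given as a description, stayed within 1 SD of the main value, as did 351 of 354 under the other settings. Between AA132 and AA147 at 10 µM the 4 targets were judged by the threshold, though given as a description. CYP1A1 there went from -0.44 to -1.05 without AA132 10 µM library 1 and was counted as kept. Calls of the descriptive values did change, as the counts below show, and AHRR was called by DESeq2 and with no filter at 6 and 15 µM. AHR against vehicle changed sign without vehicle library 1: leaving out 1 library, its log2 difference ran from -0.048 to 0.487 at 0.1 µM AA132, -0.128 to 0.408 at 0.3, -0.137 to 0.398 at 1, -0.0808 to 0.456 at 3, -0.105 to 0.428 at 6, -0.0798 to 0.456 at 10 and -0.148 to 0.388 at 30 µM, -0.0907 to 0.443 under AA147 and -0.0213 to 0.520 under Tg. ARNT, near 0 throughout, ran from -0.0124 to 0.163 at 1 µM, -0.0700 to 0.108 at 3, -0.00086 to 0.173 at 6, -0.0989 to 0.0770 at 10 and -0.0642 to 0.112 at 30 µM, and -0.0432 to 0.131 under AA147. At 3 µM it was -0.0083 without 1 µM library 1 and 3 µM library 3, a setting chosen after seeing the data. TIPARP at 0.1 µM ran from -0.167 to 0.0399, and between AA132 and AA147 AHR from -0.0093 to 0.044 and AHRR from -0.0536 to 0.330. Of the 6 genes, DESeq2 called 1 at 0.3 µM, and with no filter on low counts 2 were called at 0.3, 3 at 1 and 5 at 15 µM. With only the 2 conditions in the fit, 0 were called at 3 µM and under AA147 and 1 each at 10 and 30 µM. Leaving out 1 library gave 0 to 3 at 3 µM, 0 to 3 under AA147 and 1 to 4 under Tg. Of the pathway genes at 30 µM, 1 was called with only 2 conditions and 8 to 15 without 1 library. The fit of 2 conditions has fewer samples to estimate the spread from. For the other changes the cause was not tested. Library numbers did not pair the samples: deviations of same-numbered libraries correlated at a median of 0.0006 (-0.147 to 0.183, 165 pairs) and of others at -0.0015. With the replicate block the log2 difference under Tg was 1.07 for CYP1A1 and 0.67 for CYP1B1, and no count of called genes among the 6 changed. CYP1A1, with as few as 9 counts in a library, is limited most by depth.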
